A study of Mus musculus with 9 samples.

Results

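Immediate early genes were examined in RNA-sequencing counts from the dermis of mouse ears. The members were chosen by symbol, as AP-1 and Egr genes together with Ier2 and Zfp36, and 10 of the 52550 genes in the count table were members: Fos, Fosb, Jun, Junb, Jund, Atf3, Egr1, Egr3, Ier2 and Zfp36. They were selected with their levels and differences in the same 9 libraries known, so their values are a description, and the tests below are rows of a fit to all tested genes and not independent evidence. The libraries came from wild type C57BL/6 mice (C57BL/6J in the methods) aged 8 weeks, with 3 libraries in each of 3 groups. VAS+H2O, the control, had vaseline on the ear for 5 days and ddH2O by gavage for 10 days. IMQ+H2O, the model of psoriasis-like dermatitis, had imiquimod (IMQ) cream, which activates Toll-like receptor 7, for 5 days and the same ddH2O gavage. IMQ+XYF had imiquimod cream for 5 days and Xiao-Yin-Fang (XYF), an herbal decoction of Chinese medicine, given by gavage for 10 days at 23.3 mg/g in 200 μl once daily per the labels. Descriptions of the study differ on whether gavage was given once a day or more often. Gavage began 5 days before the cream in all groups. The methods state that RNA came from intact dermal sheets and from a pair of mice, and it was not clear from them whether a library held RNA of more than 1 animal, so p-values measure the spread between these libraries.

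Immediate early genes are transcribed within minutes of a signal, from factors that are already in the cell, and their mRNAs are short-lived. Fos and Jun proteins pair to form AP-1, Atf3 pairs with Jun proteins or with itself, and Egr proteins bind GC-rich sites, while Zfp36 (tristetraprolin) binds AU-rich mRNAs and promotes their decay. In skin these genes respond to wounding, growth factors, inflammatory signals and cell stress, and also to handling and dissociation of tissue. Zfp36 is thus an RNA-binding protein and not a transcription factor, and Ier2 is a small nuclear protein without a bZIP or zinc finger domain.

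The sequences before the start sites of 5 members are shown because they can hold elements through which such genes are known to respond quickly. Another reason is that Fosb and Atf3 had the largest differences below. An element more than 250 bases before a start lies outside these sequences and was not searched for. RefSeq windows, from 250 bases before to 50 bases after each start on GRCm38.p6, were found for 7 of the 10 members, and the 250 bases before the start are printed 5′ to 3′ on the strand of the gene. Capitals mark every match, on either strand, to the cyclic AMP response element TGACGTCA (CRE), its looser form TGACNTCA, its core TGACG, the AP-1 site TGANTCA, the CArG box of serum response factor, or the Egr site GCGNGGGCG.
Fos, chr12:85473640-85473889, plus strand: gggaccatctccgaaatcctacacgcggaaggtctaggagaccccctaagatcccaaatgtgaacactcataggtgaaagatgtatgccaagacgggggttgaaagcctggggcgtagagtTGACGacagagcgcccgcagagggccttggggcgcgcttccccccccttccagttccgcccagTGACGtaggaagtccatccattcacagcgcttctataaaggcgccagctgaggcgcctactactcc
Fosb, chr7:19310046-19310295, minus strand: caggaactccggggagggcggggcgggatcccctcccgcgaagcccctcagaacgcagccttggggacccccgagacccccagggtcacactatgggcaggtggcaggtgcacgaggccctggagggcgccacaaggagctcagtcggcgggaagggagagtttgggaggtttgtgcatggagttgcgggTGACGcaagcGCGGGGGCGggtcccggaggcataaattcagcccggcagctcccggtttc
Jun, chr4:95052223-95052472, minus strand: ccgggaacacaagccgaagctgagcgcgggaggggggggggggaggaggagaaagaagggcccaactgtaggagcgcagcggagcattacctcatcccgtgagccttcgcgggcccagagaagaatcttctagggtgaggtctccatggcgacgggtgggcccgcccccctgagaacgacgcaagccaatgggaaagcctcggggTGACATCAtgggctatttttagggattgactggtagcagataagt
Atf3, chr1:191183334-191183583, minus strand: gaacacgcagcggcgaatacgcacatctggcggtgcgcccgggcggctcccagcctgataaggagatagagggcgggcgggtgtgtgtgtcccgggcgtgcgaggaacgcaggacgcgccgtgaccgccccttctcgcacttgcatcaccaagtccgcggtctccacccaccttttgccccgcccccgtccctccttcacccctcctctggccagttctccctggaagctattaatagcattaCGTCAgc
Zfp36, chr7:28379229-28379478, minus strand: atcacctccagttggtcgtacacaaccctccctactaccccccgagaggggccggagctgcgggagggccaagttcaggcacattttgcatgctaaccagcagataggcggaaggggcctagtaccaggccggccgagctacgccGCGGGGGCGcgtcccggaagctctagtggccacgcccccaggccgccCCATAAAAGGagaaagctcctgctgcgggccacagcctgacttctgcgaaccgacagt

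Fosb held an Egr site at −50 to −42 and a TGACG core at −60 to −56 from its start. Zfp36 held a CArG box at −58 to −49 and an Egr site at −105 to −97. Jun held the looser CRE form at −45 to −38, and Fos held TGACG cores at −129 to −125 and at −66 to −62. Atf3 held a TGACG core on the other strand at −7 to −3. Of the windows not printed, that of Junb held a TGACG core at −106 to −102, and that of Jund held no match. The TGACG core was added to the search after the windows had been seen, and it lies within the full CRE, which in turn is one of the looser forms. Among all 32851 RefSeq windows, the share with a match was 5.55% for the Egr site, 1.63% for the CArG box, 8.83% for the looser CRE, 1.79% for the full CRE, 20.8% for its core and 7.81% for the AP-1 site. These are descriptions of letters in a window and say nothing of binding. The RefSeq start of Zfp36 lay 1025 bases and that of Atf3 34706 bases inside the gene's span in the GENCODE annotation, that of Fosb lay 6 bases from its end, and those of Fos and Jun coincided with it. That of Junb lay 30 bases and that of Jund 1210 bases before the span. The bases next to the GENCODE start of Jund were thus not searched.

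The libraries held between 28756305 and 79836881 counts, and mitochondrial genes took between 8.21% and 14.3% of them. All 10 members were among the 22430 genes that passed the filter on low counts, with between 2498 counts (Egr3 in IMQ+H2O replicate 1) and 300662 counts (Fos in VAS+H2O replicate 3). Fibroblast marker genes were abundant in every library, with a summed level between 10415 and 25419 CPM (read counts scaled to the size of the library). Keratinocyte markers, between 2662 and 16914 CPM, cartilage markers, between 371 and 2086 CPM, and skeletal muscle markers, between 143 and 3051 CPM, were also present, so the dermal sheets held other tissue. In such bulk RNA, fewer cells of a type and less RNA per cell cannot be told apart.

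Immediate early mRNAs were among the most abundant of the dermis. Fos ranked 24, Zfp36 27, Egr1 35, Jun 40, Fosb 54 and Junb 66 of the 22430 tested genes by mean CPM, while Jund ranked 241, Atf3 272, Ier2 339 and Egr3 1714. Together the members took between 1.30% and 1.78% of all counts in VAS+H2O, between 0.812% and 1.03% in IMQ+H2O and between 1.04% and 1.45% in IMQ+XYF. Per kilobase of exon and over the 9 libraries, the order of mean levels was Fos (1171 CPM per kilobase), Zfp36 (738), Jun (474), Junb (442), Egr1 (401), Jund (263), Ier2 (219), Fosb (186), Atf3 (184) and Egr3 (23.7). Fos lay above Zfp36, Zfp36 above Jun, Egr1 above Jund, and Atf3 above Egr3 in 9 of 9 libraries. The other neighbours changed places: Junb lay above Egr1 in 6 libraries, and Jun above Junb, Jund above Ier2, Ier2 above Fosb, and Fosb above Atf3 in 7 of the 9. Below, levels are CPM scaled by edgeR's TMM factors, which correct for composition, and are compared within a gene only.

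**Figure D1:**
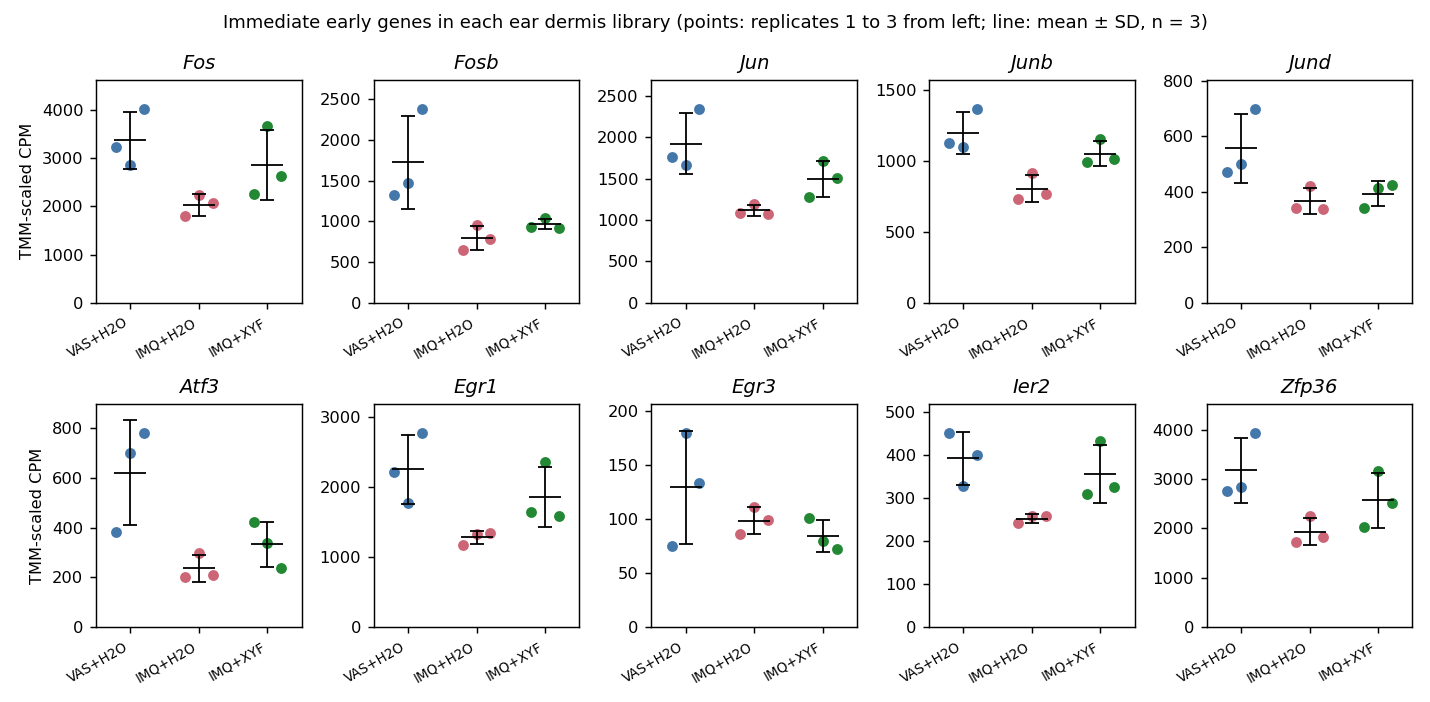
Level of each immediate early gene in each library, with TMM-scaled CPM on the vertical axis (linear, from 0), 1 point per library and a line for the mean ± SD of 3 libraries. All genes but Egr3 have all 3 IMQ+H2O points under the lowest VAS+H2O point; Fos, for example, has IMQ+H2O between 1796 and 2235 CPM and VAS+H2O between 2852 and 4028 CPM.

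Fos, the founding member of its family and the usual partner of Jun (ENSMUSG00000021250, chromosome 12 from 85473890 to 85477273), had 3236, 2852 and 4028 CPM in VAS+H2O replicates 1, 2 and 3. It had 1796, 2235 and 2069.7 CPM in IMQ+H2O and 2267, 3663 and 2638 CPM in IMQ+XYF. IMQ+H2O lay below both other groups without overlap, and IMQ+XYF overlapped VAS+H2O, with replicate 2 of IMQ+XYF above 2 of the 3 control libraries. Fosb, which gives rise to the long-lived splice form ΔFosB (ENSMUSG00000003545, chromosome 7 from 19302696 to 19310051), had 1322, 1474 and 2384 CPM in VAS+H2O. It had 650.2, 955 and 781 CPM in IMQ+H2O and 934, 1037 and 923 CPM in IMQ+XYF. Both IMQ groups lay below VAS+H2O without overlap and overlapped each other. The ratio of Fosb to Fos, per kilobase, was 0.154, 0.195 and 0.223 in VAS+H2O, 0.136, 0.161 and 0.142 in IMQ+H2O, and 0.155, 0.107 and 0.132 in IMQ+XYF. The 2 highest ratios were both in control libraries, and the ranges of all 3 groups overlapped.

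Jun, the strongest activator among the Jun proteins (ENSMUSG00000052684, chromosome 4 from 95049034 to 95052222), had 1761, 1661 and 2342 CPM in VAS+H2O, 1083, 1193 and 1074 in IMQ+H2O, and 1278, 1708 and 1502 in IMQ+XYF. Junb, which in many settings opposes Jun and which is needed for normal epidermis (ENSMUSG00000052837, chromosome 8 from 84974484 to 84978718), had 1121, 1099 and 1365 CPM in VAS+H2O, 730.3, 913 and 765 in IMQ+H2O, and 989.8, 1151 and 1010.1 in IMQ+XYF. The 3′ end of Junb overlaps Prdx2 on the other strand, which had between 4.98% and 9.21% as many counts as Junb, and whether the counting used strand was not stated. For both genes IMQ+H2O lay below each other group without overlap, and IMQ+XYF overlapped VAS+H2O. Jund, the Jun gene with the steadiest expression in unstimulated cells (ENSMUSG00000071076, chromosome 8 from 70698949 to 70700616), had 471, 500.1 and 699 CPM in VAS+H2O, 343, 422 and 338 in IMQ+H2O, and 341, 414 and 423 in IMQ+XYF. Its 2 IMQ groups overlapped almost wholly, and both lay below VAS+H2O. Of the summed level of the 3 Jun genes per kilobase, Jund made up 21.4%, 23.1% and 24.0% in VAS+H2O, 23.9%, 24.7% and 23.2% in IMQ+H2O, and 19.8%, 19.3% and 21.8% in IMQ+XYF. The Jund share was lower in each IMQ+XYF library than in each IMQ+H2O library. The shares of Jun, between 36.5% and 42.0%, and of Junb, between 34.0% and 41.6%, also varied, and in each group the mean share was highest for Jun and lowest for Jund.

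Atf3, a bZIP factor induced by many kinds of cell stress (ENSMUSG00000026628, chromosome 1 from 191170296 to 191218039), varied most among the members, with its highest library 3.84 times its lowest. It had 384, 701 and 779.9 CPM in VAS+H2O, 203, 299 and 208 in IMQ+H2O, and 422, 337 and 239 in IMQ+XYF. IMQ+H2O lay below VAS+H2O without overlap, while IMQ+XYF reached into both other groups, with replicate 1 above the lowest control library and replicate 3 among the IMQ+H2O libraries. The ratio of Atf3 to Jun, per kilobase, ran from 0.323 to 0.625 in VAS+H2O, from 0.278 to 0.371 in IMQ+H2O and from 0.235 to 0.489 in IMQ+XYF, so all 3 groups overlapped.

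Egr1, a zinc finger factor induced by growth factors and injury (ENSMUSG00000038418, chromosome 18 from 34859823 to 34864984), had 2211, 1775 and 2771 CPM in VAS+H2O, 1176, 1333 and 1338 in IMQ+H2O, and 1646, 2359.9 and 1590.5 in IMQ+XYF. IMQ+H2O lay below both other groups without overlap, as for Fos. Egr3, a related zinc finger factor with roles in lymphocytes and nerve (ENSMUSG00000033730, chromosome 14 from 70077203 to 70082614), had 75.2, 179.9 and 134 CPM in VAS+H2O, 86.0, 111 and 99.0 in IMQ+H2O, and 101, 80.3 and 72.8 in IMQ+XYF. Its control libraries reached across most of the range of both other groups, and Egr3 was the only member whose mean was lowest in IMQ+XYF. Ier2 (ENSMUSG00000053560, chromosome 8 from 84661331 to 84662852) had 450.0, 327 and 398 CPM in VAS+H2O, 241, 257 and 258 in IMQ+H2O, and 309.5, 431 and 324 in IMQ+XYF. Its IMQ+H2O libraries, with a mean of 252 ± 9.58 CPM (SD, n = 3), lay below both other groups. Zfp36 (ENSMUSG00000044786, chromosome 7 from 28376784 to 28380253) had 2767, 2831 and 3931 CPM in VAS+H2O, 1732, 2244 and 1832 in IMQ+H2O, and 2038, 3158 and 2514 in IMQ+XYF. Its IMQ+H2O libraries lay below the control libraries, and IMQ+XYF overlapped both other groups.

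Imiquimod without XYF was compared with the vaseline control first. The mean levels of the AP-1, Egr, Ier2 and Zfp36 mRNAs were all lower in the imiquimod libraries. They fell from 3372 ± 599.9 to 2034 ± 222 CPM for Fos and from 622 ± 209.8 to 237 ± 54.1 CPM for Atf3 (SD, n = 3). 10 of 10 members had a negative log2 fold change, as had 52.3% of all tested genes, and their median was −0.72 against −0.023 over all genes. Groups did not overlap for 9 members, all lower, against 16.5% of all tested genes. By quasi-likelihood in edgeR, with Benjamini-Hochberg adjustment over all 22430 genes, 0 of 10 members were called at an adjusted p of 0.05 or lower and a fold of 2 or more, where 0.994% of all genes were called and 0.348% were called lower. At an unadjusted p under 0.05 there were 9 members, all lower, and 10.8% of all genes in that direction. DESeq2's Wald test called 2 members, Fosb and Atf3, and gave 9 of 10, all but Egr3, an adjusted p of 0.05 or lower.

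The largest differences were those of Atf3 (log2 fold change −1.39, SE 0.31) and Fosb (−1.12, SE 0.23), with Benjamini-Hochberg adjusted p-values from edgeR of 0.0654 and 0.0582. Both exceeded a fold of 2 and missed the limit on the adjusted p. The remaining AP-1 genes had log2 fold changes of −0.73 (Fos, SE 0.21), −0.78 (Jun, SE 0.17), −0.57 (Junb, SE 0.14) and −0.60 (Jund, SE 0.18). Their Benjamini-Hochberg adjusted p-values from edgeR were 0.109, 0.0596, 0.0758 and 0.117. Egr1 had a log2 fold change of −0.81 (SE 0.21), Ier2 of −0.64 (SE 0.16) and Zfp36 of −0.71 (SE 0.21), with Benjamini-Hochberg adjusted p-values from edgeR of 0.0854, 0.0832 and 0.116. These 7 genes differed by less than 2-fold, and their adjusted p-values ran from 0.0596 to 0.117. Egr3 had a log2 fold change of −0.39 (SE 0.28, edgeR adjusted p 0.451), with a 95% confidence interval from −1.03 to 0.24 on the log2 scale, so neither no difference nor a 2-fold fall was outside it. It was −0.087 without VAS+H2O replicate 2 and −0.67 without VAS+H2O replicate 1. With only the libraries of the compared groups in the fit, Atf3 was called (edgeR adjusted p 0.0475), and without IMQ+XYF replicate 2, Fosb was called (edgeR adjusted p 0.0450). Over all 15 alternatives the adjusted p (edgeR or DESeq2) ran from 0.000967 to 0.224 for Atf3 and from 0.000566 to 0.202 for Fosb, and the sign of 0 members reversed.

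**Figure D2:**
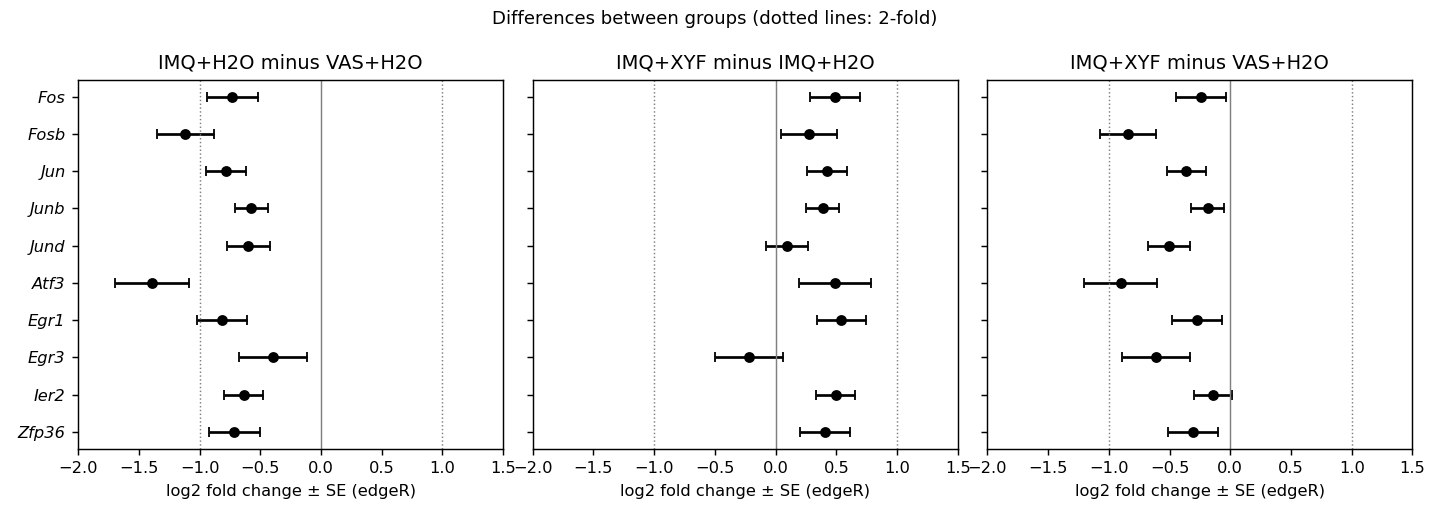
Log2 fold change ± SE of each immediate early gene (edgeR fit) in the 3 comparisons, 1 panel each, with dotted lines at a fold of 2 and a solid line at no difference. In IMQ+H2O minus VAS+H2O all 10 points lie left of 0, from −1.39 to −0.39, and in IMQ+XYF minus IMQ+H2O 9 of 10 lie right of it, up to 0.54.

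The effect of XYF under imiquimod was read from IMQ+XYF against IMQ+H2O. This comparison shares the IMQ+H2O libraries with the first comparison, so low values in those libraries enter both with opposite sign. 9 members were higher in IMQ+XYF and Egr3 was lower, with a median log2 fold change of 0.42 against 0.0054 over all genes, of which 50.7% were above 0. Groups did not overlap for 5 members, Fos, Jun, Junb, Egr1 and Ier2, all higher, against 9.22% of all tested genes. By quasi-likelihood in edgeR, with Benjamini-Hochberg adjustment 0 of 10 members were called, where 0.00892% of all genes were called, and DESeq2's Wald test also called 0. At an unadjusted p under 0.05 there were the same 5 members, all higher, and 6.35% of all genes in that direction.

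Egr1 was higher by a log2 fold change of 0.54 (SE 0.20), Ier2 by 0.49 (SE 0.16), Fos by 0.49 (SE 0.21), Jun by 0.42 (SE 0.16) and Junb by 0.39 (SE 0.14). Their Benjamini-Hochberg adjusted p-values from edgeR were 0.386, 0.364, 0.413, 0.395 and 0.379. In these 5 genes the libraries of the groups were apart, and the differences did not pass the correction over all genes. Atf3 had a log2 fold change of 0.49 (SE 0.30), Zfp36 of 0.41 (SE 0.21) and Fosb of 0.28 (SE 0.23), and their groups overlapped. Jund had 0.094 (SE 0.17), with a 95% confidence interval from −0.30 to 0.49, and Egr3 had −0.22 (SE 0.28), with one from −0.86 to 0.41. The interval of Jund holds the fitted values of Jun, Junb and Zfp36, so a p that misses the limit does not set Jund apart from them. The count of members at an unadjusted p under 0.05 fell from 5 to 1 without IMQ+H2O replicate 1, to 2 without IMQ+XYF replicate 2, and to 3 without IMQ+H2O replicate 3 or IMQ+XYF replicate 3. All 9 fits that left out 1 library had 9 members higher and 1 lower.

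The comparison of IMQ+XYF with VAS+H2O set the treated model against the control, and it shares libraries with both others. All 10 members were lower in IMQ+XYF, with a median log2 fold change of −0.33 against −0.024 over all genes, of which 52.7% were below 0. Fosb and Jund did not overlap between the groups, 2 members against 10.3% of all tested genes. By quasi-likelihood in edgeR, with Benjamini-Hochberg adjustment 0 of 10 members were called, where 1.2% of all genes were called, and DESeq2's Wald test also called 0 but gave Fosb, under 2-fold, an adjusted p of 0.0175. At an unadjusted p under 0.05 there were 3 members, all lower, and 8.76% of all genes in that direction. These were Fosb (log2 fold change −0.84, SE 0.23), Atf3 (−0.90, SE 0.30) and Jund (−0.50, SE 0.17), with Benjamini-Hochberg adjusted p-values from edgeR of 0.102, 0.156 and 0.171. Egr3 had −0.61 (SE 0.28) and Jun −0.36 (SE 0.16), and the others lay between −0.31 (Zfp36) and −0.14 (Ier2). The mean Fos level of 2856 ± 723 CPM in IMQ+XYF was within the spread of the 3372 ± 599.9 CPM in VAS+H2O (SD, n = 3). Replicates 1 and 3 of IMQ+XYF, at 2267 and 2638 CPM, nevertheless lay below the lowest control library, at 2852 CPM. The mean of Fosb, at 964 ± 62.6 against 1727 ± 574 CPM, was not within the control spread (SD, n = 3). Without VAS+H2O replicate 3 the median was −0.16 and the count at an unadjusted p under 0.05 was 1, while without IMQ+XYF replicate 2 the count was 6.

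Across libraries the members moved together, apart from Egr3. Of the 45 pairs of members, 44 had a Pearson r of log2 CPM above 0 over the 9 libraries, with a median of 0.838. The libraries of a pair share depth and composition, and the r values are descriptions. Fos and Egr1 were the closest pair (r 0.976), followed by Fos and Zfp36 (0.974) and by Jun and Zfp36 (0.972). With each group's mean removed, 40 of 45 pairs were above 0 with a median of 0.668. This r pools the deviations of all 9 libraries, and no r was computed within a single group. With group means removed, r was lower for Atf3 with Fos (0.689 to 0.149), with Egr1 (0.719 to 0.198) and with Ier2 (0.551 to −0.307). Against the mean of the other 9 members, r was 0.963 for Fosb, 0.953 for Jun, 0.952 for Junb, 0.942 for Zfp36, 0.900 for Fos, 0.898 for Jund, 0.891 for Egr1, 0.865 for Atf3, 0.744 for Ier2 and 0.359 for Egr3. Egr3 was closest to Atf3 (r 0.712, and 0.854 with group means removed) and had its lowest value with Ier2 (−0.127). With group means removed, Egr3 and Ier2 had an r of −0.618, the lowest of the 45 pairs. Atf3 and Egr3 also had the largest spread between libraries of a group, with a biological coefficient of variation of 0.268 and 0.252 against 0.146 to 0.214 for the others.

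**Figure D3:**
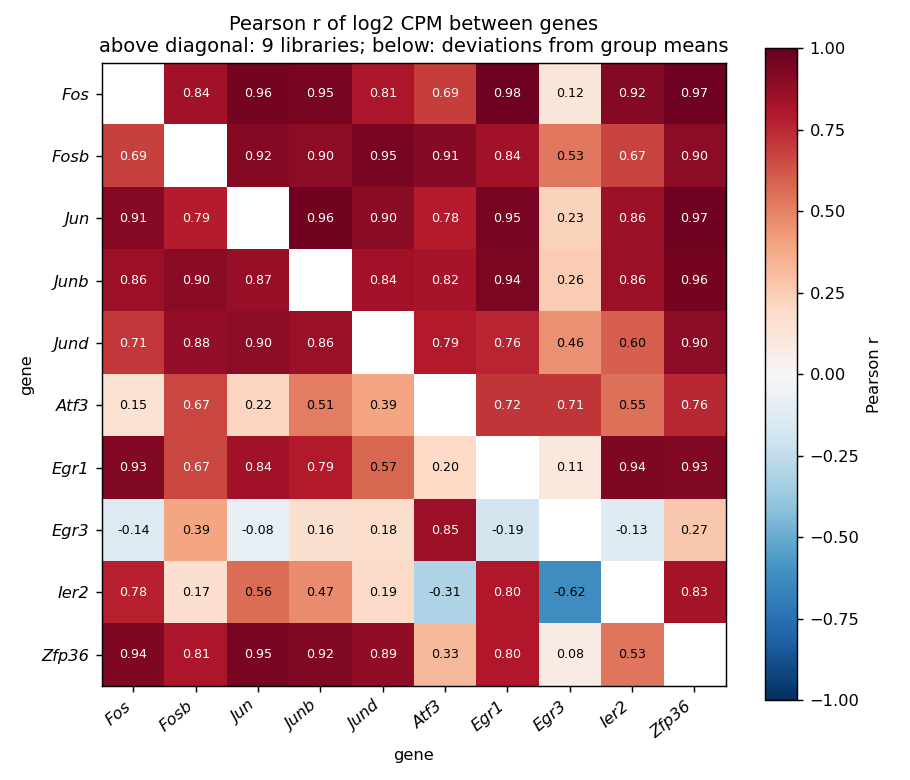
Pearson r of log2 CPM between immediate early genes, as colored squares on a scale from −1 to 1 with the value in each square; above the diagonal over 9 libraries, below it for deviations from group means. Squares of the AP-1 genes, Egr1 and Zfp36 are dark red above the diagonal, where Egr3 has its highest values with Atf3 (0.71) and Fosb (0.53). Below the diagonal, Egr3 is at 0.85 with Atf3 and at −0.62 with Ier2.

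A score per library, the mean over the members of log2 CPM centred on each gene's mean of 9 libraries, was 0.18, 0.31 and 0.68 in VAS+H2O, −0.50, −0.18 and −0.39 in IMQ+H2O, and −0.11, 0.16 and −0.13 in IMQ+XYF. VAS+H2O replicate 3 stood highest, with all 10 members above their own mean, and IMQ+H2O replicate 1 lowest, with none. In IMQ+XYF replicate 2, which stood highest of its group, 6 members were above their mean, and the 4 below it were Fosb, Jund, Atf3 and Egr3. The score had an r of 0.396 with log2 total counts and of −0.318 with the mitochondrial percent (n = 9).

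**Figure D4:**
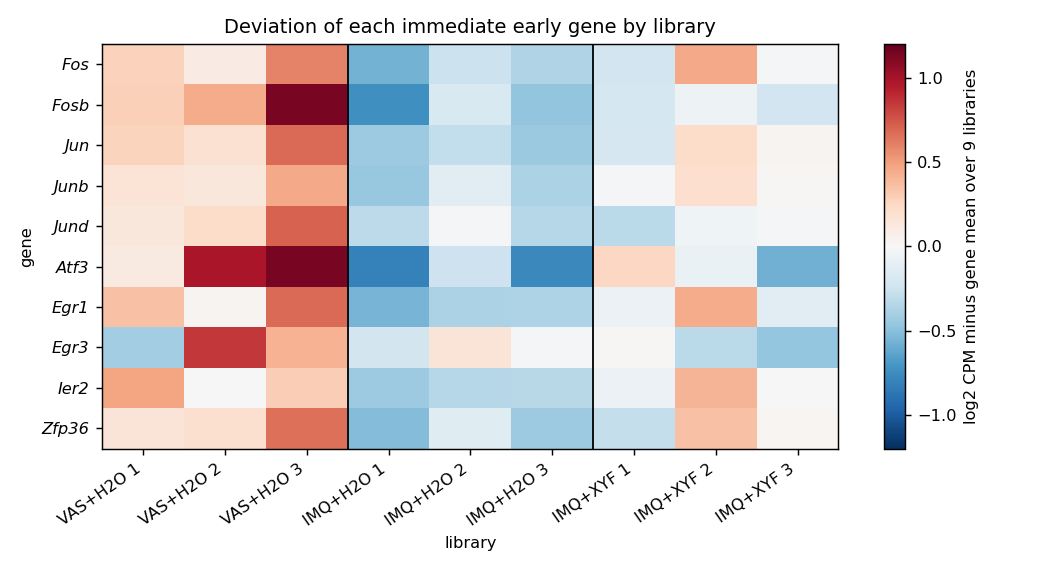
Log2 CPM of each immediate early gene (rows) in each library (columns, groups divided by black lines) minus the gene's mean over 9 libraries, on a color scale from blue (lower) to red (higher). VAS+H2O columns are red but for Egr3 in replicate 1 (−0.41), IMQ+H2O columns are blue but for Egr3 in replicate 2 (0.15), and IMQ+XYF is mixed.

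The genes outside the members whose log2 CPM was most like this score over the 9 libraries were sought among 13668 genes whose mean was 100 scaled counts or more. The first 10 were Clasp1, a microtubule-binding protein (r 0.975), the kinases Sgk3 (0.972) and Itpkb (0.972), Itfg1 (0.958), Isoc2b (0.956), the lysosomal enzyme Aga (0.956), the bromodomain gene Brd2 (0.954), the peroxisomal reductase Pecr (0.953), the autophagy gene Atg12 (0.950) and Mnt, a partner of Max (0.948). None of the 10 is an AP-1 or Egr gene. Their log2 fold changes with imiquimod, from −0.70 for Isoc2b to −0.15 for Atg12, were all below 0, as choosing them by likeness to a score that was lowest in IMQ+H2O makes likely, and edgeR called none.

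Marker levels of some tissues moved with the members over the 9 libraries, and those of others did not. The summed level of 9 cartilage genes was between 1219 and 2086 CPM in VAS+H2O, between 371 and 562 in IMQ+H2O and 679, 2053 and 1151 in IMQ+XYF replicates 1, 2 and 3. IMQ+XYF replicate 2 was thus highest of its group for both cartilage genes and members. Each r in this paragraph is that of the member score with a list score over 9 libraries, and it was 0.762 for cartilage. A list score is the mean of centred log2 CPM over the genes of a list, not the sum of their CPM. Of these cartilage genes, 9 of 9 were lower in IMQ+H2O than in VAS+H2O and 2 were called, and Matn1, a further marker, had 0 counts in all libraries. Summed hair follicle markers were between 104 and 321 CPM in VAS+H2O, between 10.7 and 33.1 in IMQ+H2O and between 16.5 and 30.3 in IMQ+XYF (r 0.796). Their IMQ+XYF libraries thus lay within the range of IMQ+H2O. For 6 of 10 hair follicle genes edgeR called a lower level in IMQ+H2O. Neutrophil markers ran the other way, between 6.65 and 22.3 CPM in VAS+H2O, between 210.2 and 666 in IMQ+H2O and between 173 and 478 in IMQ+XYF (r −0.78). The fibroblast sum was between 14654 and 25419 CPM in VAS+H2O, between 10415 and 17349 in IMQ+H2O and between 10587 and 17771 in IMQ+XYF (r 0.59). The keratinocyte sum was between 4334 and 7656 CPM in VAS+H2O, between 2662 and 3977 in IMQ+H2O and between 4554 and 16914 in IMQ+XYF, so IMQ+H2O lay below both other groups without overlap, as for Fos (r 0.18). Of 8 keratinocyte genes, 7 were lower in IMQ+H2O than in VAS+H2O, 0 of them at an unadjusted p under 0.05, and 8 were higher in IMQ+XYF than in IMQ+H2O, all at an unadjusted p under 0.05 and none called by edgeR. Endothelial markers were the reverse, between 609 and 939.9 CPM in VAS+H2O, between 1234 and 1316 in IMQ+H2O and between 475 and 1152 in IMQ+XYF (r −0.58). Summed smooth muscle markers, at 1036 CPM or more, and summed adipocyte markers, at 859 CPM or more, also had their IMQ+H2O libraries above both other groups without overlap (r −0.435 and −0.219). Of 7 smooth muscle genes, 6 were higher and 1 lower in IMQ+H2O than in VAS+H2O, and 7 were lower in IMQ+XYF than in IMQ+H2O. The 6 adipocyte genes were split, with 4 higher and 2 lower in the first comparison and 3 higher and 3 lower in the second. For the remaining 6 marker lists r lay between −0.463 (macrophages) and 0.507 (erythrocytes). The part of these tissues in the levels of the members was not tested. For cell suspensions of ears the methods describe warm dispase before the dermal sheet was peeled off, and they do not say whether the sheets used for RNA were parted in the same way. The part of handling in the levels was not tested either.

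Further genes of the same response were mostly lower with imiquimod. Of 32 further immediate early genes, 29 were lower and 3 higher in IMQ+H2O than in VAS+H2O, with a median log2 fold change of −0.45 against −0.023 over all genes. edgeR called 0 of them, and 12 had an unadjusted p under 0.05, all lower, against 10.8% of all genes in that direction. The smallest p-values belonged to Klf10, a Krüppel-like factor induced by TGF-β, at −0.48, Rhob, a short-lived GTPase, at −0.64, the growth-arrest gene Btg2 at −0.78 and the stress gene Gadd45b at −0.97. Their Benjamini-Hochberg adjusted p-values from edgeR were 0.0615, 0.0748, 0.0752 and 0.0833. Klf10, for example, had 122 ± 10.2 CPM in VAS+H2O, 87.9 ± 4.65 in IMQ+H2O and 116 ± 9.60 in IMQ+XYF (SD, n = 3).

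With XYF, 29 of the 32 were higher and 3 lower than in IMQ+H2O, with a median of 0.24. At an unadjusted p under 0.05 there were 7, all higher, against 6.35% of all genes in that direction. Klf10 (0.40), the matricellular gene Cyr61 (0.70), Btg2 (0.57) and Id1, an inhibitor of bHLH factors (0.64), had the smallest p-values, and their Benjamini-Hochberg adjusted p-values from edgeR ran from 0.363 to 0.378. In IMQ+XYF against VAS+H2O 23 were lower and 9 higher. At an unadjusted p under 0.05 there were 3, all lower, against 8.76% of all genes in that direction. Rhob was at −0.71 (edgeR adjusted p 0.0536). Both comparisons had 0 of the 32 called by edgeR. The summed level of the 32 genes was between 9927 and 11443 CPM in VAS+H2O, between 6313 and 7372 in IMQ+H2O and between 8656 and 11652 in IMQ+XYF, and the IMQ+H2O libraries overlapped neither other group.

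**Figure D5:**
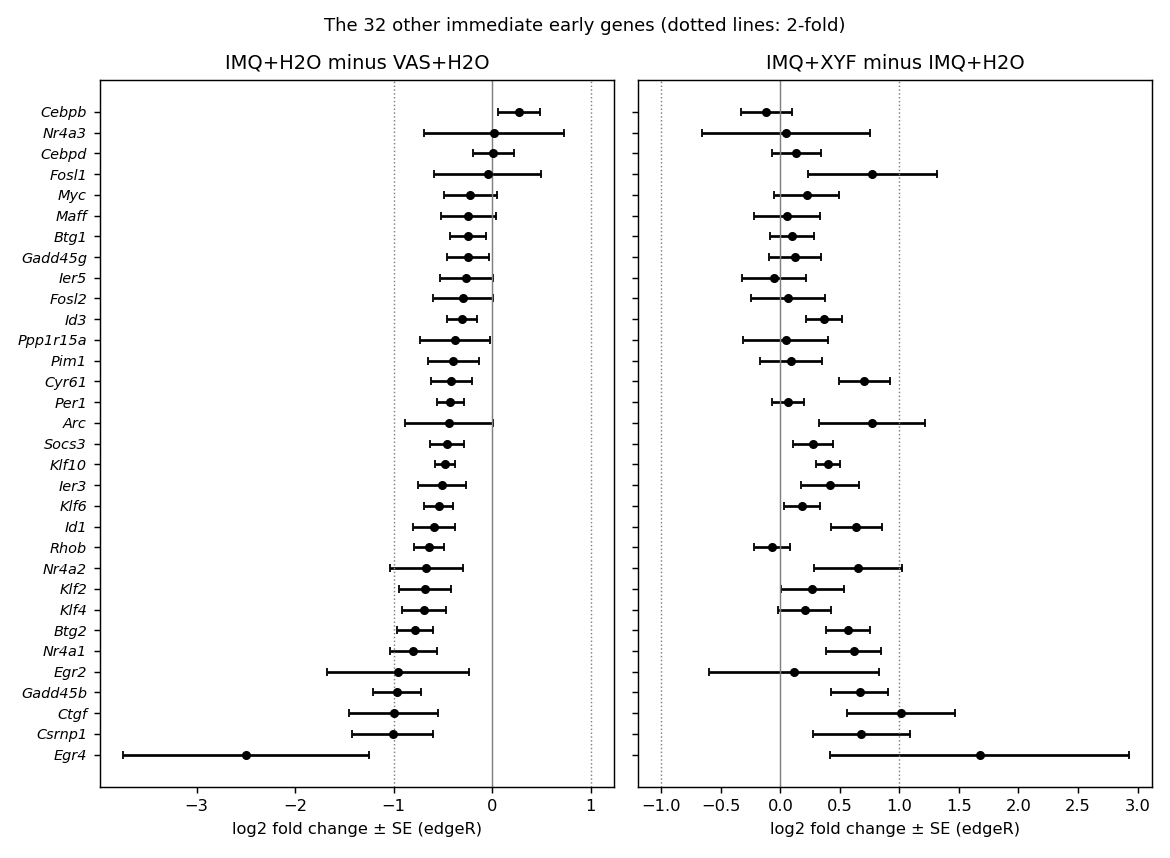
Log2 fold change ± SE (edgeR fit) of 32 further immediate early genes in IMQ+H2O minus VAS+H2O (left, which orders the rows) and IMQ+XYF minus IMQ+H2O (right), with dotted lines at a fold of 2. In the left panel 29 points lie below 0, from Egr4 at −2.50, with under 1 CPM in each group mean, to Cebpb at 0.27, and in the right panel 29 lie above 0.

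Genes upstream of the members and their partners came next. Of 26 tested genes of MAPK and serum response factor signalling, 12 were higher and 14 lower in IMQ+H2O, with a median log2 fold change of −0.03 and none called by edgeR. At an unadjusted p under 0.05, 2 were higher and 5 lower, where 10.8% of all genes were lower. The smallest p-values were those of the kinases Map2k6 (−0.68) and Map3k1 (−0.54), the coactivator Mkl2 (0.26) and the ETS factor Elk3 (0.32). Of 20 other AP-1 and bZIP genes, 13 were lower and 7 higher, with a median of −0.08 and none called by edgeR. At an unadjusted p under 0.05, 3 of these were higher and 4 lower, where 10.8% of all genes were lower. Creb1, which binds the CRE, was at 57.3 ± 5.60 CPM in VAS+H2O, 32.3 ± 9.91 in IMQ+H2O and 58.1 ± 0.916 in IMQ+XYF (SD, n = 3). Its log2 fold changes were −0.83 with imiquimod and 0.85 with XYF, with Benjamini-Hochberg adjusted p-values from edgeR of 0.0838 and 0.360. With XYF against IMQ+H2O, 15 of the 20 were higher and 5 lower, with a median of 0.062, and Creb1 alone of the 20 had an unadjusted p under 0.05. The leukocyte factors Batf (0.91) and Batf3 (0.89) were higher and Jdp2, a repressor of AP-1, was lower (−0.47) in IMQ+H2O, without being called.

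Feedback inhibitors, which are themselves induced by the same signals, were mostly lower with imiquimod. Of 21 genes, 17 were lower and 4 higher, with a median of −0.30 against −0.023 over all genes and none called by edgeR. At an unadjusted p under 0.05 there were 5, all lower, against 10.8% of all genes in that direction. Dusp8, a phosphatase of JNK and p38, had a log2 fold change of −0.94 (edgeR adjusted p 0.0540), the Ras-ERK inhibitor Spred2 had −0.41, the Egr corepressor Nab2 −0.37 and the phosphatase Dusp10 −0.52. With XYF against IMQ+H2O the median was 0.034, with 12 higher and 9 lower and 0 called by edgeR. At an unadjusted p under 0.05, where 6.35% of all genes were higher, 3 were higher, Dusp8, Nab2 and Nfkbiz.

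Known targets of the members were described by list as well. Of 21 known AP-1 targets, 13 were higher and 8 lower in IMQ+H2O, with a median of 0.75, and edgeR called 1. That gene was Timp1, an inhibitor of matrix metalloproteinases, which rose from 16.6 ± 2.21 to 178 ± 72.1 CPM (SD, n = 3), a log2 fold change of 3.42 (SE 0.54, edgeR adjusted p 0.0279). Its call was kept in 4 of the 9 fits without 1 library (edgeR adjusted p up to 0.107), with log2 fold changes from 3.23 to 3.73, and was lost without any 1 of the VAS+H2O libraries or without IMQ+H2O replicate 2 or 3. Between IMQ+XYF and VAS+H2O, Timp1 (3.57, edgeR adjusted p 0.0247) and the cornified envelope gene Sprr1b (4.66, edgeR adjusted p 0.0335) were called, and Timp1 lost this call without any 1 of the VAS+H2O libraries or without IMQ+XYF replicate 1. Sprr1b had 3.98 ± 2.86, 22.3 ± 2.13 and 98.8 ± 77.4 CPM in VAS+H2O, IMQ+H2O and IMQ+XYF (SD, n = 3), and its call was kept in 1 of the 9 fits, that without IMQ+XYF replicate 2. Keratinocyte markers, the class of cells that expresses Sprr1b, summed to 16914 CPM in IMQ+XYF replicate 1 and to at most 7656 CPM in every other library, and their part in the difference was not tested. Of 16 mRNAs known to be bound by Zfp36, 11 were higher and 5 lower in IMQ+H2O, with a median of 0.64 and none called by edgeR. 3 of them had an unadjusted p under 0.05, all higher: the chemokine genes Cxcl2 (2.08) and Ccl3 (1.88), and Ptgs2 (2.26), the inducible cyclooxygenase. Ccl2, Cxcl1, Il6, Plau, Ptgs2 and Vegfa were counted both here and among the 21 AP-1 targets, so these lists are not independent. Between IMQ+XYF and IMQ+H2O the median was 0.20 for the AP-1 targets with 13 higher and 8 lower, and 0 were called by edgeR. At an unadjusted p under 0.05 there were 5, all higher, against 6.35% of all genes in that direction. The smallest p-values were those of Sprr1b (2.15), Hbegf (0.93), Ivl (1.46) and Sprr1a (1.40), and Ivl had 35.6 ± 26.9 CPM in IMQ+XYF (SD, n = 3). All 8 keratinocyte markers were also higher in this comparison, and their part in these differences was not tested. For the Zfp36-bound mRNAs it was −0.041, with 8 higher and 8 lower.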

How the data were processed

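The deposited table gave whole-number read counts per Ensembl gene, with no normalization. By the methods and the submitters' processing notes, the authors aligned reads with STAR 2.5 to GRCm38, used StringTie and Cuffnorm, and tested with DESeq2, for which the notes name DESeq 1.22.1. The counting tool, its use of strand and its handling of reads with several alignments are not given in the sources used here. The labels call the libraries strand-specific.

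Counts were filtered with filterByExpr, scaled by TMM and tested in edgeR 4.0.16 (R 4.3.3) by quasi-likelihood, with all 9 libraries in 1 fit and a coefficient per group. A gene was called at a Benjamini-Hochberg adjusted p of 0.05 or lower and an absolute log2 fold change of 1 or higher, the limits in the methods of the study. The common biological coefficient of variation was 0.296. Log2 CPM used a prior count of 2. Levels per kilobase used the union of exons in GENCODE vM21 for GRCm38, which also gave coordinates. Promoter windows came from RefSeq. The scripts were checked on simulated counts. Replicate libraries differed by more than counting error.

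The members and gene lists were chosen with earlier results of these data known. Some lists share genes and are not independent. Fosl1, Fosl2 and Maff were among both the 32 further immediate early genes and the 20 other AP-1 and bZIP genes. Ier3 and Myc were among both the 32 and the 16 mRNAs bound by Zfp36. From each list, the genes that edgeR called were named, and otherwise at most the 4 with the smallest unadjusted p in the comparison at hand. The 10 genes most like the member score were named among genes whose symbols are not of the Gm or Rik kind. Egr4, Cebpb, Dnajb1 and Dnajb4 were named outside the rule for lists, after their values were seen. Genes in more than 1 list were also named for that overlap alone. Alternatives were DESeq2 1.42.0, RLE factors, library totals alone, no filter on low counts, the compared groups alone, the replicate number as a block, and leaving out each library. Promoters of Egr3 and Ier2 and any sequence for Egr1 were not used here.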

Additional observations from a re-analysis of the deposited data

How the results depend on the processing

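In 15 alternatives to each comparison, every member kept the sign of its log2 fold change. Members called in IMQ+H2O against VAS+H2O were 0 by edgeR, 2 under DESeq2 and 1 with only the compared groups in the fit, and 0 to 1 in the fits that left out 1 library. Genes called in that comparison were 223 of 22430, and 945 under DESeq2, 496 with only the compared groups, 86 with the replicate block and 25 to 455 without 1 library. In IMQ+XYF against IMQ+H2O they were 2, and 223 under DESeq2, 1 with library totals only, 1 with only the compared groups, 0 with the replicate block (4 members at an unadjusted p under 0.05) and 0 to 4 without 1 library. In IMQ+XYF against VAS+H2O they were 270, and 701 under DESeq2, 33 with only the compared groups, 54 with the replicate block and 12 to 592 without 1 library. Replicate numbers are shared by the groups, but the correlation of same-numbered libraries' deviations from their group means ran from −0.183 to 0.125, so they were not taken as pairs, and the block changed no call of a member. The median r between members was 0.838, and 0.668 for deviations from group means. The cause of these changes was not tested. With 3 libraries a group, a log2 fold change of −1.39 in a gene as variable as Atf3 missed the limit on the adjusted p from edgeR (0.0654).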

Other observations

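Heat shock genes belong to the other rapid stress response of cells. Of 17 genes, 8 were higher and 9 lower in IMQ+H2O than in VAS+H2O, with a median log2 fold change of −0.0090 against −0.023 over all genes. The mean of the 17 genes' centred log2 CPM had an r of −0.298 with the member score over 9 libraries. By edgeR with Benjamini-Hochberg adjustment 0 were called. At an unadjusted p under 0.05, 5 were higher and 3 lower, where 10.8% of all genes were lower. Hspe1, a mitochondrial co-chaperonin, was at 37.4 ± 1.05 CPM in VAS+H2O, 60.0 ± 6.53 in IMQ+H2O and 58.1 ± 7.77 in IMQ+XYF (SD, n = 3). Its log2 fold change with imiquimod was 0.68 (edgeR adjusted p 0.0407), under 2-fold, and its partner Hspd1 had 0.57 (edgeR adjusted p 0.0798). The cochaperones Dnajb1 and Dnajb4 had −0.48 and −0.80 with imiquimod (edgeR adjusted p 0.294 and 0.185). With XYF they had 0.38 and 0.42 (edgeR adjusted p 0.545 and 0.590). Neither was among the 4 heat shock genes with the smallest unadjusted p in either comparison. The small heat shock gene Hspb1 had −0.37 with imiquimod and Hmox1, heme oxygenase, had 1.06, at adjusted p-values from edgeR of 0.0854 and 0.0982. In the 9 fits that left out 1 library the edgeR adjusted p of Hspe1 ran from 0.0157 to 0.153.

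With XYF under imiquimod, 13 of the 17 heat shock genes were higher and 4 lower than in IMQ+H2O, with a median of 0.11, and edgeR called 0. At an unadjusted p under 0.05, where 6.35% of all genes were higher, 3 were higher. These were the inducible Hsp70 genes Hspa1b (0.71) and Hspa1a (0.64) and Hspb1 (0.41), each with an edgeR adjusted p (Benjamini-Hochberg) of 0.360. Hspa1b had 579 ± 85.9 CPM in IMQ+H2O and 945 ± 102 in IMQ+XYF, against 609 ± 78.1 in VAS+H2O (SD, n = 3), so its IMQ+XYF mean was above that of the control. Hspa1a and Hspa1b are near-identical copies, and how the counting split reads between them was not stated. In IMQ+XYF against VAS+H2O, 12 of the 17 were higher and 5 lower, with a median of 0.285 against −0.024 over all genes. edgeR called 0 of them. Hspd1 (0.75, edgeR adjusted p 0.0409) and Hspe1 (0.64, edgeR adjusted p 0.0431) were under 2-fold. In the 9 fits that left out 1 library these adjusted p-values reached 0.122 and 0.144.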
